A study of Homo sapiens with 5 samples.

Results

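The comparison described here is the last interval of an induction course in IMR32, an established human neuroblastoma cell line, from 96 h to 192 h of doxycycline. It rests on 2 of the 5 arrays, chosen by their induction time, with 1 array a side. The cells carried a stably transfected, doxycycline-inducible short hairpin RNA (shRNA) directed at the MEIS1b form of the homeobox gene MEIS1, and total RNA was read on Affymetrix U133 Plus 2.0 arrays. The 0 h array is from cells without doxycycline, and the arrays at 24, 48, 96 and 192 h are from cells given doxycycline for that long. All 5 samples hold the same hairpin in the same line. No array of uninduced cells kept to 192 h, or of doxycycline without this hairpin, was analysed here, so time in culture, the drug and the hairpin cannot be told apart. Whether the transfected line was a single clone is not given in the sources used here.

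MEIS1 belongs to the TALE class of homeodomain proteins, which bind DNA together with PBX and HOX partners and act in hindbrain, neural crest and blood development. Neuroblastoma arises from sympathoadrenal precursors of the neural crest, and its cells express the enzymes of catecholamine synthesis. As such cells differentiate they take on neurotrophin receptors, axonal guidance receptors and secretory granule proteins. The labels describe a time course and state no separate question for the last interval. What it can show is which transcripts went on changing after 96 h, which went back, and which moved for the first time.

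Values are MAS5 signals, the brightness of a set of probes after background subtraction. Differences are in log2(signal + 4.7), an offset that damps dim genes. Each gene stands for its brightest probe set, and 11944 of 19775 genes had a mean signal of at least 17.9 over the 5 arrays and were tested. Because 1 array a side leaves no spread, the test was a limma fit of all 5 arrays. It set the 192 h array against the fitted 96 h value of a line through the 4 earlier arrays, taken as equal steps. The line was not carried on past 96 h, so a gene that only continued its earlier course could also pass. The p-values of this fit assume that the 192 h array varies as the 4 earlier arrays do around their line. They measure scatter between single arrays. The words rose and fell are kept for genes with a Benjamini-Hochberg adjusted p under 0.05 in that fit. A second, untested description counts genes past 2-fold, both plainly and after subtracting the median difference of the 500 genes nearest in signal.

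Over all probe sets the median signal went from 19.0 to 18 between these arrays. The signal ratio of 3' to 5' probe sets was 1.07 and 1.02 for GAPDH, and 1.38 and 1.25 for ACTB, at 96 h and 192 h. The neuroblastoma markers bore out the label: all 9 of 10 that a single-gene probe set measures had a signal of 17.9 or more at 96 h or 192 h, with a summed signal of 12918.4 and 11320.6. TH reached that bar at 192 h only (9.9 and 28.5). Markers of other cells were mostly low. Below the same bar on both arrays were 5 of 6 Schwann cell, 5 of 6 blood and 6 of 8 endothelial markers. So were 5 of 9 epithelial and 5 of 9 fibroblast markers. The summed signal was 70.4 and 56.7 for 6 Schwann cell markers, 64.4 and 41.8 for 6 blood markers, 84.3 and 46.7 for 8 endothelial markers and 138.0 and 101.1 for 9 epithelial markers. For 9 fibroblast markers it was 575.9 and 394.9, most of it COL1A1 and PDGFRA.

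Brightness mattered for this pair of arrays. The median log2 difference was -0.02 over all genes tested, -0.18 over the brightest 500 and -0.39 over the brightest 100, of which 0% read higher at 192 h. Hybridization controls, which are added after labelling, read lower at 192 h in all 18 probe sets (mean -0.43), with 0 of 18 higher. Poly-A spike-ins, added to the RNA before labelling, read higher in 24 of 24 (mean 0.37). For genes at the bright end the nearest 500 genes are the brightest 500, so their adjusted values still hold part of that shift.

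**Figure D1:**
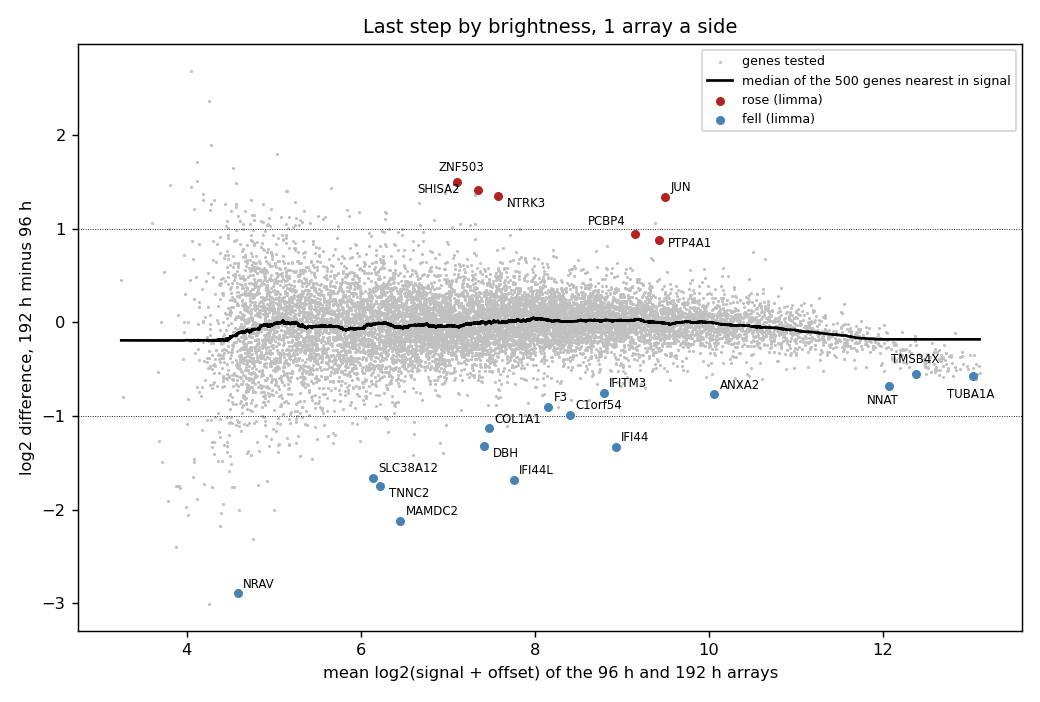
Log2 difference between the 192 h and 96 h arrays against the mean log2(signal + offset) of the same arrays, 1 grey point per gene tested. The black line is the median of the 500 genes nearest in signal, which bends below 0 at the bright end, dotted lines mark 2-fold, and the labelled points are the 6 genes that rose and the 15 that fell in the limma fit.

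In the limma fit 6 genes rose (0.0502% of the 11944 tested) and 15 fell (0.126%), 0.176% together. Those that rose were JUN, ZNF503, SHISA2, NTRK3, PCBP4 and PTP4A1. Those that fell were MAMDC2, IFI44, IFI44L, NRAV, TNNC2, SLC38A12, DBH, COL1A1, F3, IFITM3, ANXA2, C1orf54, NNAT, TUBA1A and TMSB4X. At an unadjusted p under 0.05 there were 386 higher (3.23%) and 699 lower genes (5.85%), or 9.08% in all. When each array was first adjusted for brightness, the same 6 rose and 11 of the 15 fell. The 4 lost were NNAT, TUBA1A and TMSB4X, which are among the bright genes, and TNNC2. In bulk RNA, fewer cells of a kind and less RNA per cell cannot be told apart. The adjusted p of most calls lay just under 0.05. With the mean over a gene's probe sets 1 gene rose and 1 fell, and without the filter on dim genes 0 did. Over the alternatives the adjusted p of each of the 21 genes ran from 6.44e-05 or less to 0.687. The number of calls also depended on which arrays were fitted: leaving out the 0 h array gave 61 rises and 144 falls, leaving out 24 h gave 80 and 221, leaving out 48 h gave 29 and 94, and leaving out 96 h gave 17 and 23. All 21 calls were also made after dropping 0 h, 24 h or 48 h, but 3 of the rises and 8 of the falls were left after dropping 96 h.

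By the untested 2-fold count, 85 genes (0.712%) were higher and 104 (0.871%) lower at 192 h than at 96 h, 1.58% together. The first 96 h, an interval of the same length, had 239 genes higher (2%) and 140 lower (1.17%), or 3.17% together. The single steps before it had 1.39% from 0 h to 24 h, 1.23% from 24 h to 48 h and 1.75% from 48 h to 96 h. Thus the last step was no busier by this count than the 48 h before it. Probe sets bear on how far to read it. Of 21 other probe sets of the genes that rose or fell, 20 (95.2%) differed in the same direction as the brightest one, against 57.0% over all genes tested. With a size of at least 0.5 asked as well it was 12 of 21 (57.1%), against 8.9%. For genes past 2-fold it was 76.5% of 34 other probe sets for those higher and 61.1% of 36 for those lower, or 47.1% and 27.8% at that size. Probe sets of a gene share the RNA and the arrays, so this compares probes and not samples.

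MEIS1 itself read 1052.0 before induction, then 851.5, 847.2, 857.0 and, on the last array, 786.6. The last difference was -0.12, and -0.14 for its other probe set. Of genes of similar signal 23.4% were lower by at least as much. The fitted last step of -0.06 ± 0.14 (SE) had a limma adjusted p of 0.962. Its paralogue MEIS2, which binds the same DNA core, read 196.1, 210.4, 169.3 and 166.5 on the earlier arrays and 266.7 at 192 h, its highest value. The difference from 96 h was 0.67, and 1.2% of genes of similar signal were higher by at least as much. The fitted step of 0.67 ± 0.18 did not pass (limma adjusted p = 0.181). Dropping the 0 h array brought MEIS2 to an adjusted p of 0.0434, and dropping 24 h to 0.028, in a range of 0.028 to 0.687 over all alternatives. Of the 12 TALE genes tested 0 rose and 0 fell, with a median of -0.12 against -0.02 over all genes. The other 2 that read higher besides MEIS2 were IRX5 and PBX2, a MEIS partner. PBX2 went from 69.8 to 122.3 but had also read 137.8 at 48 h, and of its 3 other probe sets 1 was higher and 2 were lower.

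Of the 85 higher genes 5, and of the 104 lower genes 1, kept moving, having been past 2-fold between 0 h and 96 h in the same direction. Over all genes tested 2% were past 2-fold higher and 1.17% lower between 0 h and 96 h. The 96 h array enters both differences with opposite signs, which works against this class. The receptor genes among the 6 that kept moving were NTRK3 and NRP1. NTRK3, which encodes the neurotrophin-3 receptor TrkC, read 47.8, 54.2, 74.4, 114.5 and 299.5 at 0, 24, 48, 96 and 192 h. In this probe set no array was lower than the one before it. Several of the others dipped first, as from 50.9 at 0 h to 31.4 at 24 h and from 33.4 to 19.1. NTRK3 rose 2.55-fold in the last step (fitted log2 step 1.45 ± 0.24 SE, limma adjusted p = 0.042), and its 8 other probe sets were all higher at 192 h, by 0.39 to 1.16. With the mean over probe sets the fitted step of NTRK3 was 1.15 and did not pass. NRP1, the neuropilin that semaphorins and VEGF bind, went from 457.1 to 960.3 after 61.1, 131.5 and 161.9. Its 2 other probe sets were higher by 0.59 and 0.80. Its difference was 1.06, and its fitted step of 1.27 ± 0.24 missed the threshold (limma adjusted p = 0.062).

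SHISA2, whose protein holds back the maturation of FGF and WNT receptors, read 40.8 and 41.4 on the first arrays, then 67.5 and 95.1, and 262.1 at 192 h. It rose 2.67-fold (fitted step 1.49 ± 0.26, limma adjusted p = 0.0493), and no gene of similar signal was higher by as much (0.0% of 500). Without the 96 h array the step was 1.66 with an adjusted p of 0.102. NOL4 went from 32.6 to 71.7, and the non-coding PELP1-DT from 12.9 to 56.7 after 1.9, 19.7 and 20. Each has 1 probe set and neither passed the limma threshold. PELP1-DT met the minimum mean signal only with its 192 h array counted, and had gone down from 20 at 48 h to 12.9 at 96 h.

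COL1A1, the main chain of type I collagen, was the gene that kept moving downward by both the plain and the signal-adjusted difference. Its signals were 584.4, 592.0, 479.2, 257.8 and 115.1, with the largest drops after 48 h. It fell 2.19-fold in the last step (fitted step -1.37 ± 0.22, limma adjusted p = 0.042). Of its 3 other probe sets 2 were lower, by 0.72 and 0.16 in size, and 1 was higher by 0.45, and with the mean over probe sets the step was -0.42 and did not pass. F3, tissue factor, the receptor that starts blood coagulation, read 849.8, 716.5, 680.0, 385.3 and 204.2. It fell 1.87-fold (limma adjusted p = 0.0484), short of 2-fold. CHRNA1 and HMCN1 were also past 2-fold lower in both intervals by the plain difference. Their last differences of -1.025 and -1.037 came to -0.984 and -0.845 after adjustment for genes of similar signal, so they just missed the class.

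**Figure D2:**
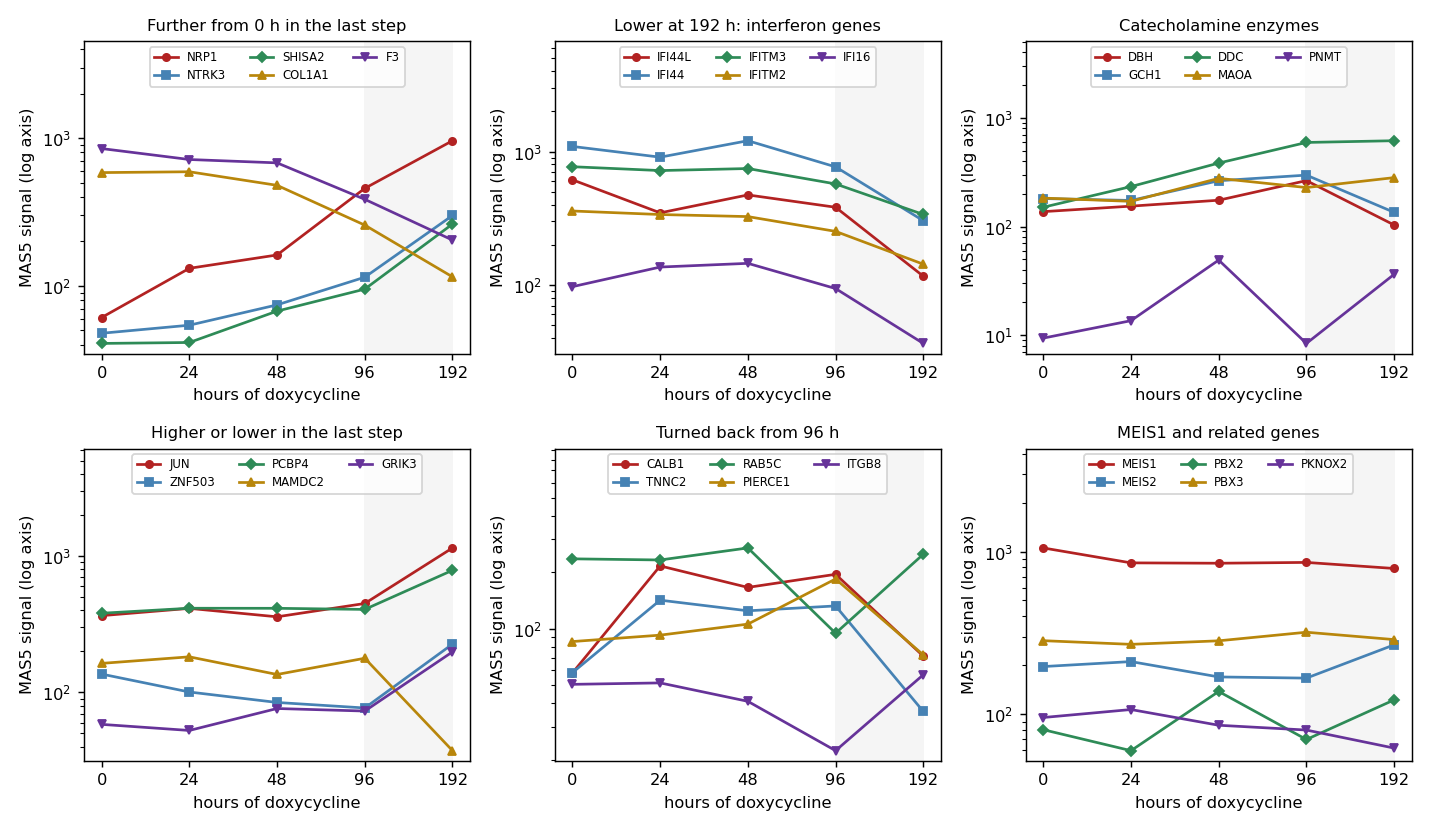
MAS5 signal (log axis) of 30 genes on the 5 arrays, 1 array per time, with hours of doxycycline spaced by array and the last interval shaded. NTRK3, SHISA2 and NRP1 are highest and COL1A1 and F3 lowest at 192 h, the interferon genes and DBH are lowest at 192 h, and CALB1, TNNC2, RAB5C, PIERCE1 and ITGB8 move back from their 96 h signal.

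Of the gene lists counted here, that of interferon-stimulated genes held the most falls, 3 of the 15. These genes encode antiviral effectors and are switched on when interferon signalling assembles STAT and IRF factors on a promoter element called the ISRE. The element's core, searched on both strands as GAAA, any 2 bases and GAAA in the 250 bases before each gene's annotated start, was found in 6 of the 10 tested members of the list with a promoter sequence (60%), against 2.02% of tested genes and 3.07% of all promoters. The 3 interferon genes that fell all hold it. They are the 3 matches among the 18 genes that rose or fell and have a promoter sequence (16.7%). Among genes past 2-fold the core was in 0 of 67 higher and 2 of 70 lower (2.86%), against 2.02% of tested genes. Since the list gathers genes switched on through this element, its share describes the list and not the last step. ISG15, which holds 2 overlapping cores, is shown beside the 3 that fell because it was dim and about level. The windows are from RefSeq (GRCh38.p14), on the gene's own strand, upstream of its annotated start, with the core in capitals.
IFI44L: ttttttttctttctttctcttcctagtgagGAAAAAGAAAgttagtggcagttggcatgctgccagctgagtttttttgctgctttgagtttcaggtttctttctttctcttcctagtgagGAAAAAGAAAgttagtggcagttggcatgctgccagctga
IFI44: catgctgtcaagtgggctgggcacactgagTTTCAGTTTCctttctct
IFITM3: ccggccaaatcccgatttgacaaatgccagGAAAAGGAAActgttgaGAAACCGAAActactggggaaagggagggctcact
ISG15: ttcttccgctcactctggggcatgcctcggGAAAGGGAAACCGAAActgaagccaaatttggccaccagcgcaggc
The IFI44L window lies at chr1:78620254-78620414 (plus strand) and holds the core 2 times within a repeated stretch. The IFI44 window, at chr1:78649741-78649788 (plus strand), holds it 1 time, reversed. The IFITM3 window is chr11:320861-320942 (minus strand) with 2 cores, and the ISG15 window is chr1:1013354-1013429 (plus strand). IFI6 (3 cores) and IFITM1 (1) are the other members with a match, while IRF1, IRF9, RIGI and PARP9 had none in this window.

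IFI44L read 613.9, 347.0, 472.9, 382.2 and 116.2, with 192 h lowest by a wide gap. It fell 3.20-fold in the last step (fitted step -1.65 ± 0.24 SE, limma adjusted p = 0.0333). Its neighbour IFI44 read 1092.4, 907.6, 1205.8, 767.6 and 302.9, and fell 2.51-fold (-1.51 ± 0.20, adjusted p = 0.02); its other probe set was lower by 1.28. IFITM3, a membrane protein that blocks viral entry, read 769.6, 720.1, 745.9, 571.7 and 337.5, and fell 1.68-fold (limma adjusted p = 0.0486). The IFITM genes are close relatives, and whether their probes share signal was not tested. All 3 genes thus had their lowest signal at 192 h, and were below 0 h already at 96 h.

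Of the 12 interferon-stimulated genes tested, 3 fell, 0 rose and 11 read lower than at 96 h, with a median of -0.65 against -0.02 over all genes; after brightness adjustment 10 read lower (median -0.62). Over all genes tested 0.126% fell and 6335 of 11944 read lower. At 96 h the median difference of the interferon-stimulated genes from 0 h was -0.44. Members that did not pass include IFITM2 (252.0 to 143.0, limma adjusted p = 0.062), IFITM1 (128.9 to 74.6), IFI6 (102.7 to 64.0) and USP18, which trims the ubiquitin-like ISG15 from proteins (643.8 to 409.9). USP18 had been at 301.7, 263.2 and 225.9 before 96 h, so its 192 h signal was still above all 3. RIGI, a sensor of viral RNA, was the member that read higher (23.6 to 36.2). The DNA sensor IFI16 is outside the list and was picked after its values were seen. It went from 93.9 to 36.4 after 97.0, 136.1 and 145.1, with both other probe sets lower, and did not pass (limma adjusted p = 0.062). NRAV, a non-coding RNA known as a brake on interferon-stimulated genes, fell in its brightest probe set, from 60.7 to 4.1 after 29.1, 23.1 and 36.5 (limma adjusted p = 0.0483). Its other probe set was about level, at 31.5 and 30.3 (-0.05), and is counted above as the same direction. Of the 30 genes on the interferon list, 28 have a single-gene probe set and the rest of those were too dim to test. Without any filter 17 of 28 read lower, with a median of -0.28.

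Of 13 catecholamine and granin genes tested, 1 fell in the last step (DBH) and 0 rose, with a median of 0.05. DBH, which turns dopamine into noradrenaline, read 137.0, 153.9, 174.5, 264.4 and 103.3. It climbed to 96 h and then fell 2.49-fold, to its lowest signal (fitted step -1.19 ± 0.20, limma adjusted p = 0.0483). That call was lost without the 96 h array, the highest of the earlier signals (fitted step -0.90, adjusted p = 0.315). GCH1, which makes the tetrahydrobiopterin that tyrosine hydroxylase needs, followed the same course with 180.8, 173.7, 263.6, 297.0 and 135.0. It was 2.16-fold lower than at 96 h, at a limma adjusted p of 0.0501. DDC, which makes dopamine, read 593.3 at 96 h and 615.6 at 192 h. TH, tyrosine hydroxylase itself, was too dim to be tested and read 2.1, 5.5, 4.2, 9.9 and 28.5, highest at 192 h. The differences between these enzymes were not tested. PNMT, the adrenaline-forming enzyme, was dim and uneven at 9.4, 13.6, 49.1, 8.4 and 36.3. The granins, proteins of the secretory granule, were near or above their 96 h signal, with CHGA at 1807.8 and 1756.3, CHGB at 165.6 and 183.9, SCG3 at 236.2 and 276.6 and SCG2 at 74.6 and 100.5.

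Neuronal genes as a group were about level after 96 h. Of 30 neuronal differentiation genes tested, 1 rose (NTRK3) and 0 fell; the median was 0.02 in the last step and 0.51 between 0 h and 96 h. The axonal growth protein GAP43 went from 50.6 to 103.1 but had also read 87.9 at 48 h, and its other probe set was 0.26 higher. The endosomal protein NSG1 went from 68.4 to 107.0. Neither gene passed the threshold. DCX, a microtubule protein of migrating neurons, went from 564.2 to 443.7, STMN2 from 73.3 to 58.4 and PRPH, a peripheral neuron filament, from 2306.7 to 2236.6. TUBA1A, the alpha tubulin of young neurons, fell from 10246.5 to 6872.7 (limma adjusted p = 0.0401), but it lies among the bright genes that shift together and did not pass after brightness adjustment (0.0799). NNAT, an imprinted proteolipid of developing neurons, went from 5447.3 to 3397.5 and was lost in the same way (0.0401 and 0.0987). Among 27 axon guidance genes none rose or fell, with 0 of each. NRP1 was the highest, and ROBO1, a receptor for SLIT proteins, was the lowest at 613.0 and 391.8. Of 22 adrenergic transcription factors 0 rose and 0 fell. Their median was -0.10, and -0.04 with the mean over a gene's probe sets. ISL1 went from 1722.4 to 1154.1 and INSM1 from 775.5 to 549.6, while TBX3 went from 453.3 to 671.9 with its 3 other probe sets also higher.

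Transcripts past 2-fold in the last step alone were led in the limma fit by JUN and MAMDC2. A gene was placed in this class when its 4 earlier arrays lay within 2-fold of each other, which still allows a smaller earlier change. It held 34 of the higher and 66 of the lower genes, IFI44L, IFI44, DBH and GCH1 among them. By 96 h DBH and GCH1 already differed from 0 h by 0.93 and 0.70 on the log2 scale and IFI44L by -0.68. JUN, an AP-1 subunit and stress-responsive immediate early gene, read 365.6, 413.5, 358.6 and 449.1 and then 1147.3. It rose 2.54-fold (fitted step 1.43 ± 0.16 SE, limma adjusted p = 0.00881). The 3 other probe sets were higher by 0.36 to 1.08. Of 26 immediate early genes tested 1 rose, 0 fell and 20 read higher, with a median of 0.24, against 5590 of 11944 genes higher over all. With the mean over a gene's probe sets 19 read higher, with a median of 0.16. Those that did not pass include ATF3 (51.7 to 88.3), FOSL2 (29.7 to 53), the MAP kinase phosphatase DUSP4 (107.8 to 169.1) and the RAS pathway inhibitor SPRED2 (233.3 to 381.9).

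ZNF503, a zinc finger repressor of embryonic patterning, drifted down over the earlier arrays (136.3, 100.7, 84.4 and 76.9) and read 226.2 at 192 h, above all of them. It rose 2.83-fold (limma adjusted p = 0.02). PCBP4, an RNA-binding protein, was flat at 380.8, 414.4, 413.9 and 406.3 and rose to 786.5 (1.93-fold, limma adjusted p = 0.0401). PTP4A1, a tyrosine phosphatase, had gone from 958.5 to 502.9 by 96 h in its brightest probe set. It rose to 932.3, back near its 0 h signal (limma adjusted p = 0.0486). Its 3 other probe sets were higher at 192 h by 0.09 to 0.42. They had no comparable drop by 96 h (522.2 to 513.0, 322.6 to 279.3 and 467.8 to 532.7). With the mean over probe sets the fitted step of PTP4A1 was 0.36 and did not pass. Among higher genes that did not pass, GRIK3, a kainate-type glutamate receptor subunit, went from 73.0 to 198.4 after 58.3, 52.6 and 76.2 (limma adjusted p = 0.062). CUX2, a homeobox gene of upper-layer cortical neurons, went from 26.0 to 78.1, and the choline transporter-like SLC44A5 from 60.9 to 153.7, with its other probe set 0.78 higher. PCBP4 and PTP4A1 stayed short of 2-fold and are counted in no class.

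On the lower side, MAMDC2, a secreted proteoglycan, read 163.3, 182.4, 135.4 and 178.1 and then 37.4. It fell 4.34-fold (fitted step -1.99 ± 0.23, limma adjusted p = 0.00881). SLC38A12 read 79.7, 74.3, 92.0 and 120.8 and fell to 35 (limma adjusted p = 0.0468). C1orf54 went from 471.8 to 235.9 and fell 1.98-fold (0.042). ANXA2, a calcium-dependent membrane-binding protein, read 1366.6, 1621.3, 1524.9 and 1390.3 and fell to 815.2 (limma adjusted p = 0.042), with both other probe sets lower by 0.61 and 0.73 in size. The actin-binding TMSB4X fell from 6483.0 to 4425.2 (0.042), and at 0.0987 did not pass after brightness adjustment. PROM1, the stem cell antigen CD133, went from 67.4 to 21.5 (limma adjusted p = 0.062) and ALPK2 from 60.0 to 19.4 (0.062). LATS2, a Hippo pathway kinase, went from 54.7 to 19.7 (0.0907), but its other probe set was about level at 26.6 and 24.1 (-0.12). The Hippo-regulated factor TEAD2 went from 350.4 to 203.6 (0.0616), short of 2-fold, with both other probe sets lower.

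Genes that turned back formed a class of 51, with 34 higher and 17 lower at 192 h after a 2-fold change the other way by 96 h. Of these, 35 were within 0.5 log2 of their 0 h signal at 192 h. The 96 h array enters both differences, so a signal that stood off on that array alone would place a gene here. Judged from the 48 h array instead, which the last step does not use, 3 higher and 7 lower genes turned back. RAB5C, an early endosome GTPase, is a case where 96 h stands alone: 235.9, 232.6, 269.7, 94.5 and 249.6. Its other probe set was also higher at 192 h, by 0.67. ITGB8, an integrin that releases TGF-beta, read 50.4, 51.3, 40.9, 22.3 and 56.7, again lowest at 96 h. PIERCE1, a cilium protein, was highest at 96 h (184.2) and read 72.4 at 192 h after 85.3 at 0 h.

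Other turned-back genes had been away from 0 h on several arrays. CALB1, the calcium buffer calbindin, read 58.0 at 0 h, 216.2, 166.0 and 195.0 at 24, 48 and 96 h, and 71.3 at 192 h. It was 2.63-fold lower than at 96 h, its other probe set was lower by 1.16, and it did not pass the limma threshold (adjusted p = 0.138). TNNC2, a fast-muscle troponin C and so another calcium-binding protein, followed the same outline with 58.2, 141.9, 124.5, 132.2 and 36.1. It fell 3.36-fold (limma adjusted p = 0.0486), and after brightness adjustment its adjusted p was 0.0814. The slow-muscle troponin TNNI1, picked after its values were seen, read 17.2, 36.5, 47.0, 70.2 and 27.7.

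From the side of the first 96 h, most genes that had been higher stayed where they were. Of the 239 genes past 2-fold higher at 96 h, 161 (67.4%) were within 0.5 log2 of their 96 h signal at 192 h, 5 had gone 2-fold further and 17 were back by 2-fold, and the median last difference was -0.11. Of the 140 lower genes 65 (46.4%) were within 0.5, 1 had gone further and 34 were back, with a median of 0.41. Both sets were chosen with the 96 h array, which the last difference also holds.

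**Figure D3:**
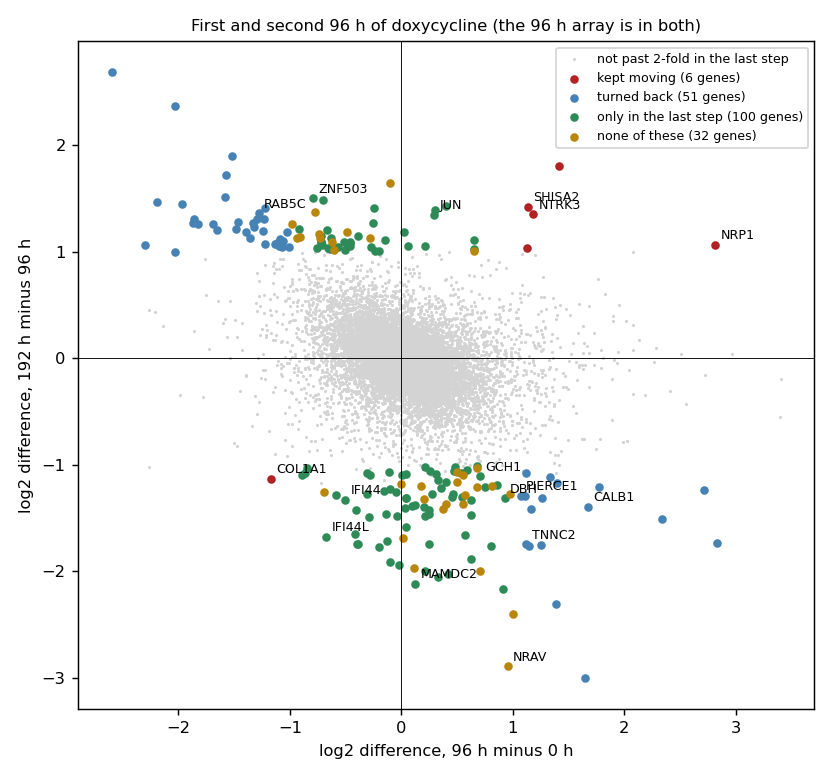
Log2 difference between 192 h and 96 h against that between 96 h and 0 h, 1 point per gene tested, with genes past 2-fold in the last step coloured by class. The 6 genes that kept moving lie in the upper right and lower left and the 51 that turned back in the other corners, and since the 96 h array enters the axes with opposite signs, a tilt downward to the right is built in.

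Mitotic genes read a little higher at 192 h than at 96 h. All 42 G2/M genes of the list were tested; 0 rose and 0 fell, 35 read higher, and the median was 0.17. Over all genes tested 5590 of 11944 read higher, with a median of -0.02. At 96 h the median difference of the G2/M genes from 0 h had been -0.48, with 41 of 42 lower. At 192 h it was -0.30, with 40 of 42 still lower. The kinetochore gene NDC80 read 382.0, 344.8, 317.2, 276.7 and 411.7. The mitotic kinase PLK1 read 659.6, 419.7, 446.2, 316.7 and 461.8, and MKI67, the Ki-67 antigen, 688.5, 475.7, 504.8, 471.2 and 547.7. These genes are of middling to high signal, and after brightness adjustment 39 of 42 read higher (median 0.16). The 41 G1/S genes, which act at the start of DNA replication, had a median of -0.02 that turned to 0.07 with the mean over probe sets. The licensing factor CDT1 had the largest difference among them, 112.4 to 212.6, which its other probe set did not share (-0.02).

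Of 31 extracellular matrix genes tested, 1 fell (COL1A1), 0 rose and 23 read lower, with a median of -0.24. Of all 11944 genes tested, 6335 read lower and 5590 higher. With the mean over a gene's probe sets 20 matrix genes read lower and 11 higher, with a median of -0.14. COL2A1, the cartilage collagen, went from 321.2 to 174.9 with its other probe set lower by 1.05 (limma adjusted p = 0.062). FN1, fibronectin, went from 449.8 to 251.2 (0.0697), and the protease ADAMTS9 from 133.9 to 73.3 (0.0796). BCAN and COL18A1 were the members with the largest differences upward, COL18A1 at 10.5 and 22.5. The fibroblast markers COL1A2 (13.3 and 17.5) and COL3A1 (14.5 and 11.1) were below the 17.9 minimum on both arrays, and were tested through their mean over the 5.

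Genes of the cholesterol list, which also holds the fatty acid desaturase FADS2 and the regulator SREBF1, read lower in 21 of 23 tested. Their median was -0.21, with 0 past the limma threshold in each direction. Over all genes tested 6335 of 11944 read lower, with a median of -0.02. TM7SF2, a sterol reductase and the member past 2-fold, read 21.1, 12.1, 27.0, 60.4 and 25.4, so its 96 h signal stood above the other arrays. The isomerase IDI1 went from 776.9 to 542.5 and INSIG1, the sterol-sensing brake on SREBP, from 297.8 to 215.2. FASN was level at 728.2 and 730.1.

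Ribosomal protein genes read lower together with other bright probe sets. Of 36 tested 35 read lower, with a median of -0.37, and 0 rose and 0 fell. The brightest 100 genes had a median of -0.39, and over all genes tested 6335 of 11944 read lower. RPL32 went from 7000.4 to 4765.0 and GAPDH, a glycolytic enzyme used as a reference gene, from 8089.5 to 5395.8. After brightness adjustment the ribosomal median was -0.19, and under quantile normalization it turned to 0.02, with 19 higher and 15 lower, so no direction holds for the ribosomal genes. The median of 17 heat shock chaperones turned likewise, from -0.14 to 0.02. The 39 respiratory chain genes, also bright, kept their direction (median -0.19, and -0.08 under quantile normalization).

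**Figure D4:**
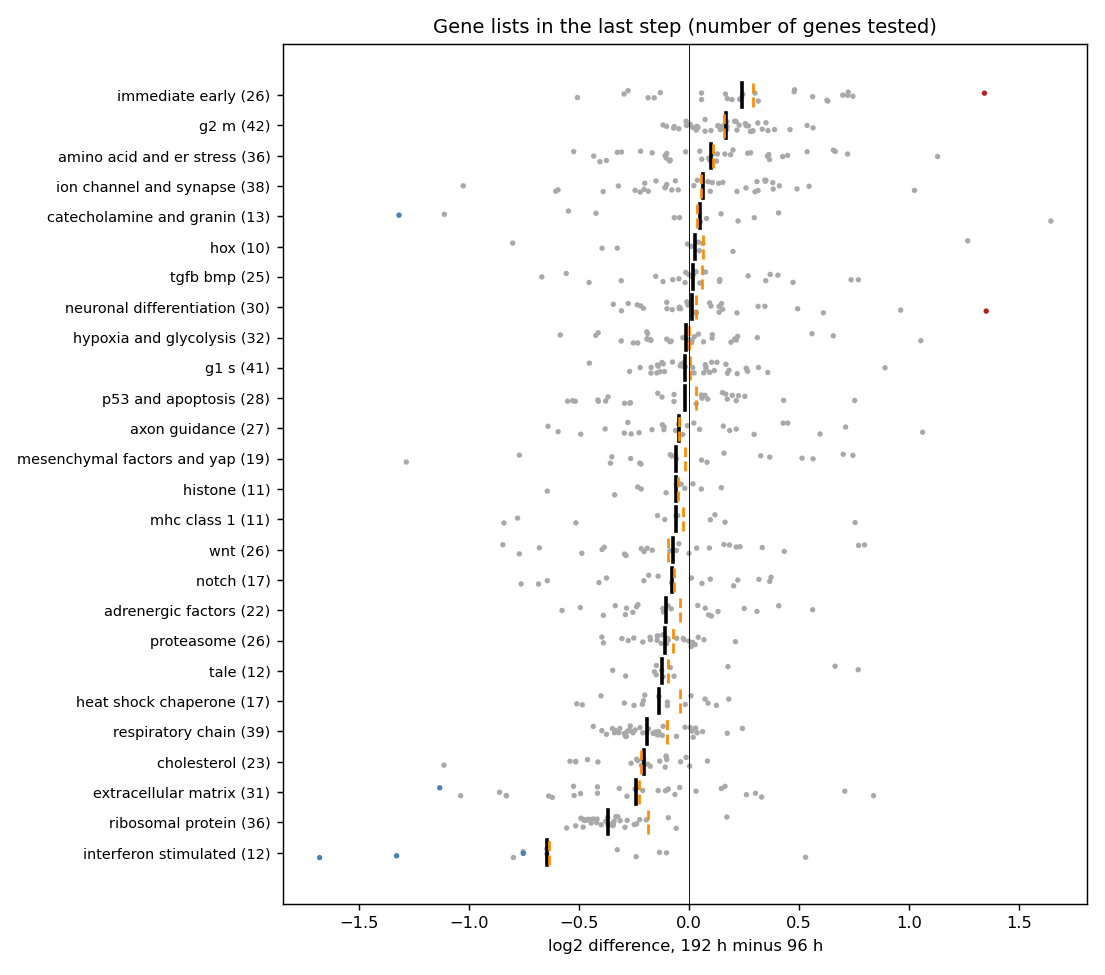
Log2 difference between 192 h and 96 h for members of each gene list (number tested in brackets), 1 point per gene, with red for genes that rose and blue for genes that fell. Black bars are list medians and orange dashes are medians after subtracting that of genes of similar signal; cell type marker lists are not drawn. Of the lists drawn, interferon-stimulated genes are lowest at -0.65, ribosomal proteins are next at -0.37 and immediate early genes are highest at 0.24; the sign of the ribosomal median depends on normalization.

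The MEIS core TGACAG, searched on both strands in the same 250 bases, was in the promoters of 10 of 67 genes past 2-fold higher (14.9%) and 8 of 70 lower (11.4%), against 10.4% of tested genes and 13.1% of all promoters. It was in 2 of 18 of the genes that rose or fell (11.1%), IFI44 and TUBA1A. In the IFI44 window it stands in lower case before the ISRE core and does not overlap it. These shares are close to the background, and a match or its absence describes only the letters of this window.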

How the data were processed

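Total RNA of 5 IMR32 samples, 1 per time point, was measured. The authors deposited log2 values, read here as log2 of MAS5 signals since, on the linear scale, 100.0% of values were multiples of 0.1 (tolerance 0.01). MAS5 and GCOS are named in the submitters' processing notes. No source used here gives the log step or scaling target; the mean trimmed by 2% was 100.02 on both arrays compared. MAS5 scales each array by 1 factor, which leaves brightness-dependent shifts, and its background step makes dim signals noisy. Precision is limited by 1 array per time point.

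Signals were returned to the linear scale, 4.7 (each array's lower quartile, median over arrays) was added and log2 taken. Control probe sets, 62 in all, were not tested. Of 54675 probe sets, 41091 name 1 gene in GEO's platform annotation, 1801 several and 11721 none; 41037 of those with 1 gene matched the RefSeq table of GRCh38.p14, and 0 symbols changed. The brightest probe set stood for its gene and had to average 17.9 or more, which is the overall median signal.

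The test was limma 3.58.1 in R 4.3.3 (lmFit, eBayes with trend) with an intercept, the step up to 96 h and an indicator of 192 h, two-sided, with 10.62 prior degrees of freedom added to 2 residual ones, and Benjamini-Hochberg over 11944 genes. Lists are described by counts and medians, with no set test. Python 3.11.15 drew the figures.

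The genes named are MEIS1 and 4 given markers, the 12 largest rises and falls past both the limma threshold and 2-fold with the brighter signal at least 50, the 6 largest in each class at that brightness, and in each list the calls or the 4 largest differences. All genes past the limma threshold, and others marked by their list or as picked, are named besides. The members and lists were chosen with earlier results of these data known. Alternatives changed the offset, filter, scaling, probe set rule, brightness adjustment, arrays fitted and fold.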

Additional observations from a re-analysis of the deposited data

How the results depend on the processing

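The 21 genes that rose or fell kept their direction in every fit in which they were tested, but their calls did not hold in all. Without a filter on low signals 0 rose and 0 fell in limma (578 and 831 at an unadjusted p under 0.05, with 19775 genes tested); with the mean over probe sets 1 rose (ZNF503) and 1 fell (MAMDC2). With a mean signal of at least 50, 15 rose and 58 fell; with array medians set equal, 11 and 28; with 192 h set against the mean of 48 h and 96 h, 92 fell. Leaving out 1 array gave 17 to 80 rises and 23 to 221 falls; the cause was not tested. Genes past 2-fold numbered 17 higher and 27 lower with 4 times the offset, 674 and 776 with no filter, 23 and 24 with a mean signal of at least 50, and 353 and 422 at 1.5-fold. With the earlier change taken from 48 h, 3 lower genes kept moving, 3 higher and 7 lower turned back, and 43 higher were in no class. With the earlier change at 1.5-fold, 8 higher and 7 lower kept moving, 54 and 31 turned back, 20 higher were past 2-fold in the last step alone, and 3 and 12 were in no class.

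No paired analysis was possible because each time point has 1 array. No interval between times was replicated, dim genes have the widest scatter, and the adjustment by 500 genes of similar signal covers only part of the shift at the bright end.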

Other observations

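A few gene groups outside the main account also had members well off their 96 h signal. VLDLR, a receptor for lipoproteins and reelin counted among amino acid and ER stress genes, read 56.1, 44.0, 27.1, 34.6 and 81.4, so 192 h was its highest array. Of that list 36 were tested, 0 rose and 0 fell, and 22 read higher, against 5590 of 11944 over all genes tested. The angiogenic factor VEGFA went from 163.0 to 259.7, a difference of 0.66. Its 3 other probe sets were higher by less, 0.09 to 0.48. ADM, adrenomedullin, went from 19.8 to 46.2 after 16.4, 13.4 and 11.5, and met the minimum mean signal only with its 192 h array counted. The 32 hypoxia and glycolysis genes as a list had a median of -0.01.

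Among ion channel and synapse genes (38 tested, 0 rose, 0 fell, median 0.06), CHRNA1, the muscle-type acetylcholine receptor subunit, read 449.6, 149.7, 138.3, 89.7 and 41.7, lower on every later array. Of 28 p53 and apoptosis genes tested 0 passed. The cell cycle inhibitor CDKN1A went from 489.2 to 332.5 and TP53INP1 from 1026.1 to 716.1, both after higher signals than at 0 h (262.5 and 343.7). Among 17 Notch pathway genes, with 0 past the threshold, the ligand DLL3 went from 642.5 to 398.4 with its 2 other probe sets lower, and the glycosyltransferase MFNG from 388.0 to 246.7. The BMP pathway inhibitor SMAD6 went from 139.9 to 242.1 with its other probe set 0.37 higher. Lists with no member past the threshold and medians between -0.11 and 0.03 were MHC class I, mesenchymal and YAP, TGF-beta and BMP, WNT, HOX, histone and proteasome genes, besides those already described.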
